A study of Rattus norvegicus with 18 samples.

Results

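The collagen family was measured by 37 genes of the 16988 genes on the array. Members were the probe sets that the platform annotation paired with a single symbol of the form Col, number, a, number, and the median over its probe sets, on the log2 scale, stood for each gene. They held 1783 of the 223110 probe sets with a single symbol, between 3 and 117 per gene with a median of 49, and all 37 symbols are current RefSeq names. By the structure of their product, 11 were fibrillar, 5 belonged to the basement membrane network, 3 formed beaded filaments, 2 were multiplexins, 3 made short-chain networks, 9 were fibril-associated, 3 were transmembrane and 1 formed anchoring fibrils.

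The RNA came from confluent WB-F344 cells, a rat liver line with stem-like properties, at passages 14 to 16. The treated cultures received 100 nM PCB126 (3,3',4,4',5-pentachlorobiphenyl, a dioxin-like biphenyl that binds the aryl hydrocarbon receptor), and the controls 0.1% DMSO, its vehicle. Cultures were sampled after 6, 24 and 72 h, so that the 6 groups were PCB126 for 6, 24 or 72 h and DMSO for the same times, each with 3 exon arrays (18 in all). The labels call the 3 samples of a group independent repeats without saying whether they came from separate thaws or passages, so the spread that p-values measure may be technical in part. All samples come from 1 cell line.

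Collagens are proteins of the extracellular matrix built from triple helices of chains, which can be identical or the products of different genes. Type I collagen joins chains of Col1a1 and Col1a2, type III is made of Col3a1 chains alone, and type V, most often built from Col5a1 and Col5a2 chains, starts fibrils and limits their width. Type IV forms the sheet of basement membranes, type VI forms beaded filaments next to cells, and fibril-associated collagens such as types XII and XIV sit on the surface of fibrils. In the liver, fibrillar collagens are made mainly by mesenchymal cells and build up in fibrosis, while liver epithelial lines in culture can also express them.

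Over all genes the array medians lay between 6.19 and 6.54, and the interquartile range of relative log expression lay between 0.275 and 0.475, widest on replicates 2 and 1 of PCB126 at 72 h. Exposure was checked with Cyp1a1, the cytochrome P450 that the aryl hydrocarbon receptor induces, which averaged 6.97, 9.69 and 10.33 in PCB126 cultures at 6, 24 and 72 h and 4.07, 4.15 and 4.11 in DMSO cultures. At 72 h the keratin Krt8 averaged 8.64 ± 0.34 in PCB126 cultures and 7.55 ± 0.15 in DMSO cultures (SD, n = 3 arrays each). Another bile duct keratin, Krt19, averaged 5.28 in PCB126 cultures and 6.65 in DMSO cultures. The hepatocyte gene Alb averaged 3.41 in PCB126 cultures and 3.43 in DMSO cultures, and the leukocyte gene Ptprc 3.09 in PCB126 cultures and 2.90 in DMSO cultures. Other markers of these cell types were high: Cyp2e1, a cytochrome P450 of hepatocytes, averaged 8.22 in PCB126 cultures and 10.90 in DMSO cultures, and Cd14, a receptor of monocytes, 9.43 in PCB126 cultures and 10.19 in DMSO cultures. The scale has no zero, so Alb and Ptprc are described only as lying below the median probe set level of 4.03. All 37 collagens exceeded that level in their mean over arrays. The level is low beside the array medians of 6.19 to 6.54 over all genes. Exceeding it therefore does not show that a collagen was clearly expressed. Many of the 37 collagens lay below those medians, such as Col19a1 with group means of 4.24 to 4.61 and Col6a3 with 4.93 to 5.22. Medians and counts of signs over the family therefore include many dim members.

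At 72 h, 3 collagens differed between the treatments. Col14a1, the chain of the fibril-associated type XIV collagen, was higher in PCB126 cultures, and the fibrillar chains Col3a1 and Col5a2 were lower. The test was limma's moderated test of a contrast with Benjamini-Hochberg adjustment over all 16988 genes, with an adjusted p under 0.05 as the threshold for a call. By this rule 7.44% of all genes were called at 72 h, 3.3% higher and 4.14% lower, against 1 collagen higher and 2 lower of 37. The median change of the 37 collagens was 0.01 on the log2 scale, beside 0.00148 for all genes, and 19 were positive and 18 negative.

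**Figure D1:**
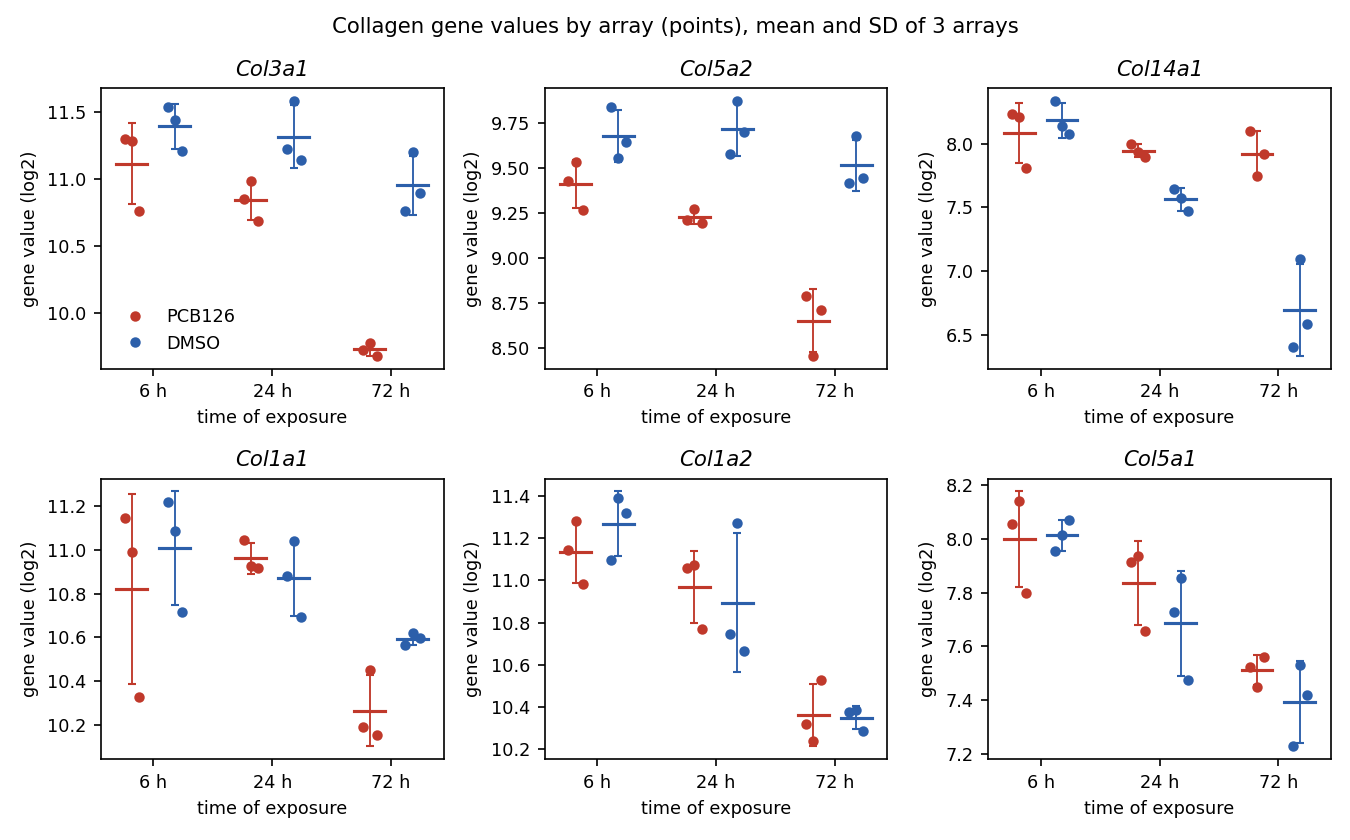
Log2 gene value of 6 collagens on each array (points), with the group mean (line) and SD (bar) of 3 arrays, for PCB126 (red) left of DMSO (blue) at 6, 24 and 72 h. At 72 h the PCB126 arrays lie below the DMSO arrays for Col3a1 and Col5a2 and above them for Col14a1, while the groups overlap for Col1a2 and Col5a1.

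Col3a1 had values of 9.72, 9.78 and 9.68 on the PCB126 arrays at 72 h, against 10.76, 11.20 and 10.89 on the DMSO arrays. All PCB126 arrays were lower, by more than the spread of either group. The fall was 1.22 on the log2 scale (log2 change -1.22, SE 0.168, 2.33-fold lower, adjusted p = 1.55e-04 by limma). At 24 h the values were 10.85, 10.98 and 10.69 with PCB126 and 11.22, 11.58 and 11.14 with DMSO, again without overlap, but the change of -0.47 (SE 0.168, adjusted p = 0.145) was not called. At 6 h the groups overlapped, with means of 11.11 ± 0.30 in PCB126 cultures and 11.39 ± 0.17 in DMSO cultures (SD, n = 3 each).

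Col5a2, which encodes the second chain of type V collagen, had values of 8.79, 8.46 and 8.71 on the PCB126 arrays at 72 h, against 9.42, 9.68 and 9.45 on the DMSO arrays. The highest PCB126 array lay below the lowest DMSO array. The log2 change was -0.86 (SE 0.129, 1.82-fold lower, adjusted p = 3.61e-04 by limma). At 24 h the PCB126 arrays read 9.21, 9.27 and 9.19 and the DMSO arrays 9.58, 9.87 and 9.70, a change of -0.49 (SE 0.129, adjusted p = 0.0372). This 24 h call was lost whichever of the 6 arrays was left out (adjusted p between 0.0560 and 0.160, log2 change between -0.56 and -0.41). At 6 h all 3 PCB126 arrays (9.43, 9.53 and 9.27) were also below the DMSO arrays (9.84, 9.55 and 9.64), with a change that was not called. In the GRCr8 gene table Col3a1 and Col5a2 are neighbouring protein-coding genes, one of 5 such pairs among the 37 members.

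Col14a1 had values of 8.10, 7.75 and 7.92 on the PCB126 arrays at 72 h, against 6.40, 7.10 and 6.59 on the DMSO arrays. The lowest PCB126 array stood above the highest DMSO array. The log2 change was 1.23 (SE 0.167, 2.34-fold higher, adjusted p = 1.43e-04 by limma). At 24 h the values were 8.00, 7.94 and 7.90 in PCB126 cultures and 7.65, 7.57 and 7.47 in DMSO cultures, which did not overlap, and the change of 0.38 (SE 0.167, adjusted p = 0.274) was not called. At 6 h the groups overlapped, at 8.23, 8.21 and 7.81 with PCB126 and 8.33, 8.14 and 8.07 with DMSO. The calls of Col3a1, Col5a2 and Col14a1 at 72 h held in each of 16 alternative fits, among them those that left out each array in turn.

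At 6 h limma called 0 of 37 collagens, beside 0.494% of all genes, and 0 had an unadjusted p under 0.05, beside 8.31% of all genes. The changes at 6 h ran from -0.29 for Col12a1 to 0.23 for Col20a1, with a median of -0.02 beside -0.01 for all genes. At 24 h, Col5a2 was the 1 collagen called, beside 4.84% of all genes (3.14% lower), and 7 collagens had an unadjusted p under 0.05 (18.9%, beside 15.4% of all genes). The median of the 37 changes at 24 h was -0.00492, beside -0.02 for all genes. Among the named members not called at 24 h, Col6a2, a chain of type VI collagen, had the smallest adjusted p (log2 change -0.48, SE 0.138, adjusted p = 0.0569).

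**Figure D2:**
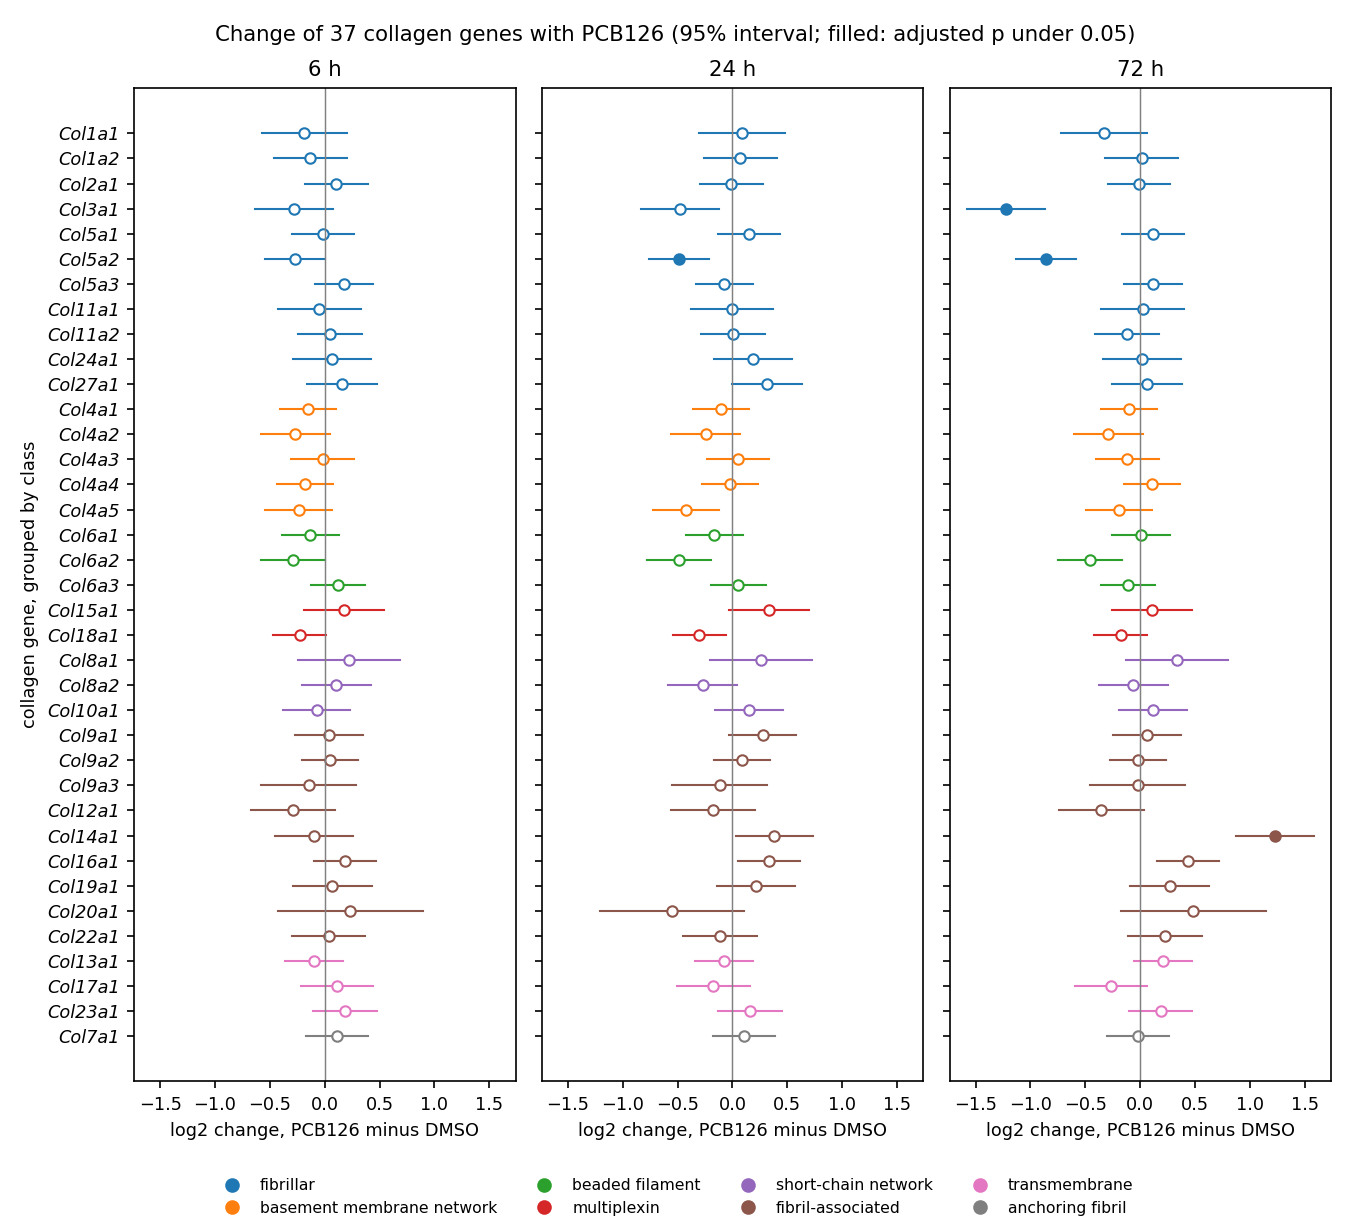
Log2 change (PCB126 minus DMSO) of the 37 collagens at 6, 24 and 72 h, with 95% intervals from limma, coloured by structural class, with called genes filled. No collagen is called at 6 h, Col5a2 alone at 24 h, and Col3a1, Col5a2 and Col14a1 at 72 h.

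Arrays without overlap were also counted at each time. At 6 h, 1 collagen had all PCB126 arrays above the DMSO arrays and 4 had all below, beside 7.05% and 9.87% of all genes. At 24 h the counts were 6 above and 6 below, beside 9.11% and 12.7%, and at 72 h they were 3 above and 5 below, beside 9.52% and 10.7%. Col5a2 and Col6a2 were below at all 3 times. The share of all genes below at all 3 times was not counted, so this persistence cannot be judged against it.

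The other fibrillar chains measured at 72 h were not called. Col1a1, the major chain of type I collagen, had values of 10.19, 10.45 and 10.16 on the PCB126 arrays and 10.57, 10.62 and 10.60 on the DMSO arrays. The groups did not overlap, and the change of -0.33 had a 95% interval of -0.72 to 0.06 (adjusted p = 0.378 by limma). Its partner chain Col1a2 overlapped, at 10.32, 10.24 and 10.53 with PCB126 and 10.38, 10.39 and 10.28 with DMSO, with a change of 0.01 (95% interval -0.32 to 0.35). Of the 11 fibrillar genes, 2 were called, both lower, 6 changes were positive and 5 negative, and the median was 0.01. Among them, Col2a1, Col5a3, Col11a1, Col11a2, Col24a1 and Col27a1 had group means between 5.42 and 6.74. These lay near or below the array medians of 6.19 to 6.54, so the class median and signs rest in part on dim chains. A change that missed the threshold does not show that a chain was unaffected.

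The chains of type V collagen were also compared within each array. Col5a1, the chain that pairs with Col5a2, read 7.52, 7.45 and 7.56 on the PCB126 arrays at 72 h and 7.23, 7.53 and 7.42 on the DMSO arrays, which overlapped (log2 change 0.12, 95% interval -0.16 to 0.40). The difference between the chains on 1 array, Col5a2 minus Col5a1, was 1.26, 1.01 and 1.15 in PCB126 cultures at 72 h and 2.19, 2.14 and 2.03 in DMSO cultures. Every PCB126 array had the smaller difference, and this also held at 24 h (mean 1.39 with PCB126 and 2.03 with DMSO) and at 6 h (mean 1.41 with PCB126 and 1.66 with DMSO). The size of such a difference has no meaning between probe sets of different genes, but its shift measures how unequally the chains changed. For 3 against 3 arrays an exact permutation test, two-sided, cannot give a p below 0.1, which was reached at each time. The PCB126 arrays of Col5a2 alone already lay below the DMSO arrays at each time. The test of the difference therefore adds no separate support.

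The same within-array difference was taken for 4 other pairs of chains, each at the 3 times. Col3a1 minus Col1a1 was -0.47, -0.68 and -0.48 in PCB126 cultures at 72 h and 0.20, 0.58 and 0.29 in DMSO cultures. Its PCB126 arrays lay below the DMSO arrays at 24 and 72 h, as those of Col3a1 alone did, and overlapped them at 6 h. Col3a1 minus Col5a2, both of which fell, averaged 1.07 with PCB126 and 1.44 with DMSO at 72 h, and every PCB126 array had the smaller difference, while the arrays overlapped at 6 and 24 h. Col4a1 minus Col4a2 was higher on every PCB126 array at 24 h (mean 0.341 with PCB126 and 0.197 with DMSO, exact p = 0.1, two-sided) and overlapped at 6 and 72 h. Col1a1 minus Col1a2 overlapped at all 3 times.

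Promoter windows from RefSeq (GRCr8, 250 bases before to 50 after a gene's start) matched 29 of the 37 members, with 31 windows in all, 3 of them of Col24a1. Col12a1, Col14a1, Col1a1, Col22a1, Col2a1, Col3a1, Col6a2 and Col9a3 had no match. The windows were searched on both strands for GCGTG, the core bound by the aryl hydrocarbon receptor, for the CCAAT box, for GGGCGG, the core of Sp1 sites, and for TATAA. The core GCGTG stood in 13 of 31 collagen windows (41.9%), beside 29.7% of 33469 windows of the same length in the table, and GGGCGG in 18 (58.1%), beside 33.1%. CCAAT stood in 8 (25.8%), beside 37.5%, and TATAA in 6 (19.4%), beside 26.2%. The windows of Col4a1 and Col4a2 overlap, as do those of Col4a3 and Col4a4 and the 3 of Col24a1, so shared bases were searched more than once. Shown here are the 250 bases before the start for both chains of type V collagen, 1 called and 1 not, and for Col1a2, with any match in capitals; no matches overlap.
Col5a2: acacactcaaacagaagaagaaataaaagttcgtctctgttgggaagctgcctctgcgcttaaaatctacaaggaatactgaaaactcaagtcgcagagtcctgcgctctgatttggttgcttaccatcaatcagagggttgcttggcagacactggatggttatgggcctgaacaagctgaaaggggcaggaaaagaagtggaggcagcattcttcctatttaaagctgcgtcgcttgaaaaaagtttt
Col5a1: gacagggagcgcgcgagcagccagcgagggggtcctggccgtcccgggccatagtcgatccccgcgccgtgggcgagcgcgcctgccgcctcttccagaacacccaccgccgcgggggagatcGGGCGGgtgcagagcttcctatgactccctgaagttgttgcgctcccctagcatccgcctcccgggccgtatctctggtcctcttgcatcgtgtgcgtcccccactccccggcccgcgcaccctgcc
Col1a2: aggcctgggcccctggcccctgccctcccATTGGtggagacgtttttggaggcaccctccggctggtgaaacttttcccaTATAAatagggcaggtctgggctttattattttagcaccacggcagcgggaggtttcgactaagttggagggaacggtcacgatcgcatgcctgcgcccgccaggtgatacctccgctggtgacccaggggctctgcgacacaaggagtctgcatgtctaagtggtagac
The Col5a2 stretch is chr9:55090152-55090401 on the minus strand, that of Col5a1 chr3:31606630-31606879 on the plus strand and that of Col1a2 chr4:33518307-33518556 on the plus strand. The Col5a2 window held none of the 4 motifs, that of Col5a1 held GGGCGG from base -127 and that of Col1a2 held a reverse CCAAT from base -221 and TATAA from base -170, counted from the start. These matches describe the letters of the windows alone.

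The single probe sets of a gene give a second view of these changes, since each lies at another place of the transcript, although they share the RNA and are not replicates. Of the 1783 collagen probe sets, 136 were called at 72 h by limma over all 223110 probe sets, 39 higher and 97 lower, beside 3.94% of all probe sets (1.57% higher and 2.36% lower). They belonged to 11 genes. All 55 probe sets of Col3a1 had a negative change and 52 were called, with changes between -1.65 and -0.52. All 55 of Col5a2 were negative and 34 called, between -1.70 and -0.12. All 49 of Col14a1 were positive and 37 called, between 0.11 and 2.23.

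Col1a1 had 49 of 49 probe sets negative at 72 h, with a median of -0.35, and 0 called. At 24 h 43 of its 49 were positive, so that this low, even shift was seen at 72 h and, with a median of -0.20, at 6 h (49 of 49 negative). For Col1a2, 38 of 53 were positive at 72 h (median 0.06), and for Col5a1 53 of 67 (median 0.21), none of them called. The basement membrane chain Col4a5 had 49 of 55 negative and 3 called, with a median of -0.46, while the change of its gene value, the median over probe sets on each array, was -0.19. Col6a2 had 20 of 26 negative and 3 called, and the fibril-associated Col16a1 56 of 72 positive and 2 called. At 24 h all 55 probe sets of Col3a1 and all 55 of Col5a2 were negative and 46 of 49 of Col14a1 positive, with 0 called in these genes beside 1.86% of all probe sets.

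**Figure D3:**
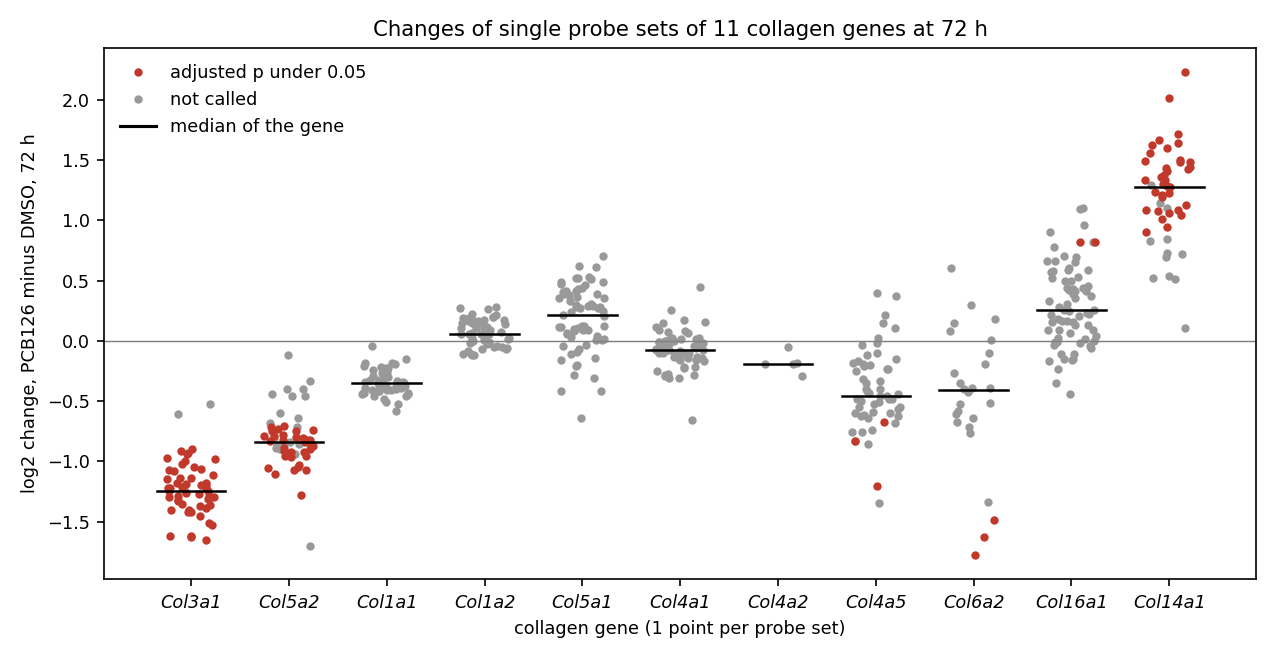
Log2 change (PCB126 minus DMSO) at 72 h of each probe set of 11 collagen genes, with the median of each gene as a bar and called probe sets in red. The probe sets of Col3a1 and Col5a2 lie below 0 and those of Col14a1 above it over their whole range, while those of Col1a2 and Col4a1 scatter about 0.

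None of the 5 basement membrane genes was called at any time. Their median change was -0.18 at 6 h, -0.10 at 24 h and -0.12 at 72 h, and all 5 were negative at 6 h and 4 at 24 and at 72 h. Col4a1, which with Col4a2 forms the common type IV network, averaged 9.49 ± 0.04 in PCB126 cultures and 9.59 ± 0.17 in DMSO cultures at 72 h (SD, n = 3 each), a change of -0.10 (95% interval -0.35 to 0.16). Col4a2, measured by 5 probe sets, averaged 8.94 ± 0.11 with PCB126 and 9.23 ± 0.22 with DMSO (change -0.29, 95% interval -0.61 to 0.03).

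The type VI chains were not called either. Col6a2 had values of 5.69, 5.87 and 5.87 on the PCB126 arrays at 72 h and 6.24, 6.23 and 6.33 on the DMSO arrays, which did not overlap. Its change of -0.46 (SE 0.138) had an adjusted p of 0.0543 and passed the threshold in 5 of 16 alternative fits. Col6a1 averaged 5.87 ± 0.16 in PCB126 cultures and 5.86 ± 0.02 in DMSO cultures (change 0.01), and Col6a3 5.11 ± 0.09 in PCB126 cultures and 5.22 ± 0.23 in DMSO cultures (change -0.11; SD, n = 3 each).

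Of the 9 fibril-associated genes, Col14a1 alone was called at 72 h, 6 changes were positive and the median was 0.23. Col16a1, the chain of type XVI collagen, read 7.57, 7.31 and 7.38 on the PCB126 arrays and 6.99, 7.12 and 6.84 on the DMSO arrays, all higher with PCB126, and its change of 0.44 (SE 0.133, adjusted p = 0.0598) passed in 5 of 16 alternative fits. Col20a1 had the largest uncalled change, 0.48, with an interval of -0.17 to 1.14; it rested on 3 probe sets and its groups overlapped. Col12a1, another fibril-associated chain, had a change of -0.35 (95% interval -0.74 to 0.03).

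The remaining classes held no called gene at any time. The multiplexins Col15a1 and Col18a1, which attach to basement membranes, had changes of 0.11 and -0.18 at 72 h. In the short-chain class, Col8a1 had 0.34, Col10a1 0.11 and Col8a2 -0.06. The transmembrane collagens Col13a1, Col17a1 and Col23a1 had 0.20, -0.27 and 0.19, and Col7a1, which anchors skin epithelium to its bed, -0.02.

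The interaction of treatment and time was tested with limma's moderated F-test. It called Col14a1 (adjusted p = 0.0350), 1 of 37 collagens, beside 0.565% of all genes, and 3 collagens had an unadjusted p under 0.05 (8.11%, beside 8.64% of all genes). For Col14a1 the effect at 72 h minus that at 6 h was 1.33 (SE 0.236, adjusted p = 0.0115), a contrast in which 0.948% of all genes were called. The same difference was -0.94 (SE 0.237, adjusted p = 0.0791) for Col3a1 and -0.59 (SE 0.182, adjusted p = 0.191) for Col5a2, so that a difference between times was not shown for these genes. The F-test call of Col14a1 remained when 1 of 4 arrays was left out (replicate 1 of PCB126 or replicate 2 of DMSO at 24 h, or replicate 2 of either treatment at 72 h) and was lost without any 1 of the other 14, with an adjusted p of at most 0.0994.

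Collagens also moved with time in culture. Between 6 and 72 h, 7 collagens fell in PCB126 cultures and 6 in DMSO cultures, and none rose in either. Beside these counts, 4.17% of all genes fell and 5.66% were called in PCB126 cultures, and 3.27% fell and 4.14% were called in DMSO cultures. The median over the 37 collagens was 0.00267 in PCB126 cultures and -0.02 in DMSO cultures, beside -0.05 for all genes in both.

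**Figure D4:**
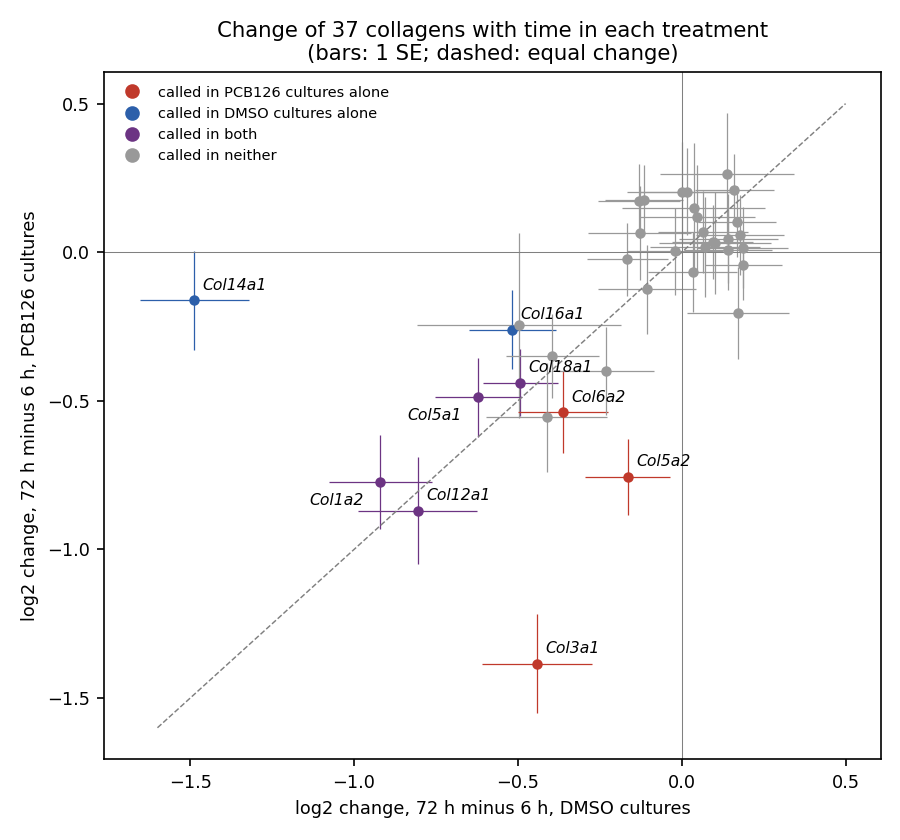
Log2 change between 72 and 6 h of each of 37 collagens in PCB126 cultures (vertical axis) and in DMSO cultures (horizontal axis), with bars of 1 SE and a dashed line of equal change. Col1a2, Col5a1, Col12a1 and Col18a1 lie near the line and are called in both treatments, Col14a1 lies far to the left and Col3a1 far below.

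Col1a2, Col12a1, Col5a1 and Col18a1 were called lower with time in both treatments. Col1a2 changed by -0.77 in PCB126 cultures and by -0.92 in DMSO cultures, and Col12a1 by -0.87 in PCB126 cultures and -0.81 in DMSO cultures. Col5a1 changed by -0.49 in PCB126 cultures and -0.62 in DMSO cultures, and Col18a1 by -0.44 in PCB126 cultures and -0.49 in DMSO cultures. Col1a1 was not called in either, with changes of -0.56 in PCB126 cultures (adjusted p = 0.0969) and -0.41 in DMSO cultures (adjusted p = 0.239).

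Col3a1 fell by 1.38 between 6 and 72 h in PCB126 cultures (adjusted p = 9.81e-05 by limma) and had a change of -0.44 in DMSO cultures (adjusted p = 0.159). The change of Col5a2 was -0.76 in PCB126 cultures (adjusted p = 0.00201) and -0.17 in DMSO cultures (adjusted p = 0.547). For Col6a2 it was -0.54 in PCB126 cultures (adjusted p = 0.0303) and -0.36 in DMSO cultures. For Col14a1 the change was -0.16 in PCB126 cultures (95% interval -0.51 to 0.19) and -1.49 in DMSO cultures (SE 0.167, 2.80-fold lower, adjusted p = 1.20e-04). The higher level of Col14a1 in PCB126 cultures at 72 h thus stood beside a mean of 8.08 ± 0.24 in the same treatment at 6 h, and the DMSO mean was 6.69 ± 0.36 at 72 h and 8.18 ± 0.14 at 6 h (SD, n = 3 each). Col16a1 had changes of -0.26 in PCB126 cultures and -0.52 in DMSO cultures (adjusted p = 0.0407 in DMSO cultures).

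These comparisons over time share their arrays with the comparisons of PCB126 with DMSO. When an array of the comparison was left out, between 3 and 6 collagens were called in PCB126 cultures and between 2 and 6 in DMSO cultures. Col1a2, Col3a1 and Col5a2 remained called in all 6 such fits of the PCB126 cultures and Col14a1 and Col1a2 in all 6 of the DMSO cultures. In DMSO cultures 2 collagens were called without replicate 2 or 3 at 6 h or replicate 1 or 3 at 72 h, and 4 without replicate 1 at 6 h. The other calls depended on single arrays. In PCB126 cultures the call of Col18a1 was lost in 6 of 6 such fits, those of Col5a1 and Col6a2 in 5 and that of Col12a1 in 1. In DMSO cultures the calls of Col12a1 and Col16a1 were lost in 5 of 6, and those of Col5a1 and Col18a1 in 4. In PCB126 cultures 3 were called without replicate 2 at 6 h, and 4 without any 1 of the 72 h arrays.

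Collagen chains need enzymes and chaperones to fold, leave the cell and be joined into fibrils, and 36 of 38 listed genes of this assembly were measured, 5 of them under an older symbol. At 6 h limma called 0, with 7 of 36 at an unadjusted p under 0.05, beside 8.31% of all genes. At 24 h 2 rose and 2 fell (4 of 36, beside 4.84% of all genes), and at 72 h 1 rose and 4 fell (5 of 36, beside 7.44% of all genes). The median change over the list was -0.13 at 24 h and -0.03 at 72 h. The listed genes were chosen with earlier results of these arrays known.

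Creb3l1, a transcription factor of the secretory pathway that activates type I collagen genes in mice, averaged 11.36 ± 0.17 in PCB126 cultures and 10.16 ± 0.25 in DMSO cultures at 24 h (SD, n = 3 each), a rise of 1.19 (SE 0.144, adjusted p = 9.88e-05 by limma). At 72 h its change was 0.83 (adjusted p = 0.00134 by limma). Col1a1 averaged 10.96 in PCB126 cultures and 10.87 in DMSO cultures at 24 h. Col1a2 averaged 10.97 in PCB126 cultures and 10.89 in DMSO cultures at 24 h. The change at 72 h was -0.33 for Col1a1 and 0.01 for Col1a2. A link between Creb3l1 and these chains was not tested. Sec13, a coat protein of the vesicles that leave the endoplasmic reticulum, rose by 0.43 at 24 h (adjusted p = 0.0493).

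The assembly genes called lower were P4ha3, Adamts3, Bmp1, Lox and Plod2. Other listed genes that act on the chains, such as P4ha2 and Adamts2, did not fall at 72 h. Over the 36 measured assembly genes, 14 changes were positive and 22 negative at that time. P4ha3, a subunit of the prolyl hydroxylase that stabilises the triple helix, averaged 8.54 ± 0.14 in PCB126 cultures and 9.25 ± 0.19 in DMSO cultures at 72 h (log2 change -0.70, adjusted p = 0.00450). Adamts3, which removes the amino-terminal propeptide of fibrillar procollagens, changed by -0.64 (adjusted p = 0.00587), and Bmp1, which removes the carboxy-terminal propeptide, by -0.45 at 24 h and -0.49 at 72 h (adjusted p = 0.0434 and 0.0185). Lox, the lysyl oxidase that cross-links collagen, averaged 10.54 ± 0.15 with PCB126 and 11.04 ± 0.09 with DMSO at 72 h (log2 change -0.50, adjusted p = 0.0185). Plod2, a lysyl hydroxylase of collagen, fell by 0.52 at 24 h (adjusted p = 0.0348) and was not called at 72 h.

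Of 10 listed collagen receptors 9 were measured. Of these 9, 0 were called at 6 h, 1 at 24 h and 2 at 72 h, beside 0.494%, 4.84% and 7.44% of all genes. Itga1, the integrin chain that with beta 1 integrin binds collagen, averaged 5.85 ± 0.26 in PCB126 cultures and 7.01 ± 0.23 in DMSO cultures at 24 h, and 5.79 ± 0.27 in PCB126 cultures and 6.77 ± 0.12 in DMSO cultures at 72 h (log2 changes -1.16 and -0.98, adjusted p = 4.66e-04 and 0.00116). The collagen-binding receptor kinase Ddr1 fell by 0.40 at 72 h (adjusted p = 0.0404). The 7 other measured receptors were not called at any of the times.

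Of 11 collagenases and their inhibitors 10 were measured. Of these 10, 0 were called at 6 h, 1 at 24 h and 2 at 72 h, beside the same shares of all genes (0.494%, 4.84% and 7.44%). Mmp14, a membrane-bound metalloproteinase that cuts fibrillar collagen, fell by 0.75 at 24 h and 0.58 at 72 h (adjusted p = 0.00556 and 0.0208). Timp3, an inhibitor of metalloproteinases held in the matrix, averaged 4.69 ± 0.52 in PCB126 cultures and 6.08 ± 0.11 in DMSO cultures at 72 h (log2 change -1.39, SE 0.222, adjusted p = 6.29e-04). The calls of Creb3l1, Itga1, Timp3, P4ha3 and Adamts3 held without any 1 array of the comparison, whereas at 72 h those of Ddr1, Mmp14, Lox and Bmp1 were lost in 6, 4, 3 and 2 of 6 such fits. At 24 h the calls of Plod2, Bmp1 and Sec13 were lost in 6, 5 and 5 of 6. Over all 16 alternative fits, the calls of P4ha3 and Adamts3 at 72 h were each lost in 1.

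**Figure D5:**
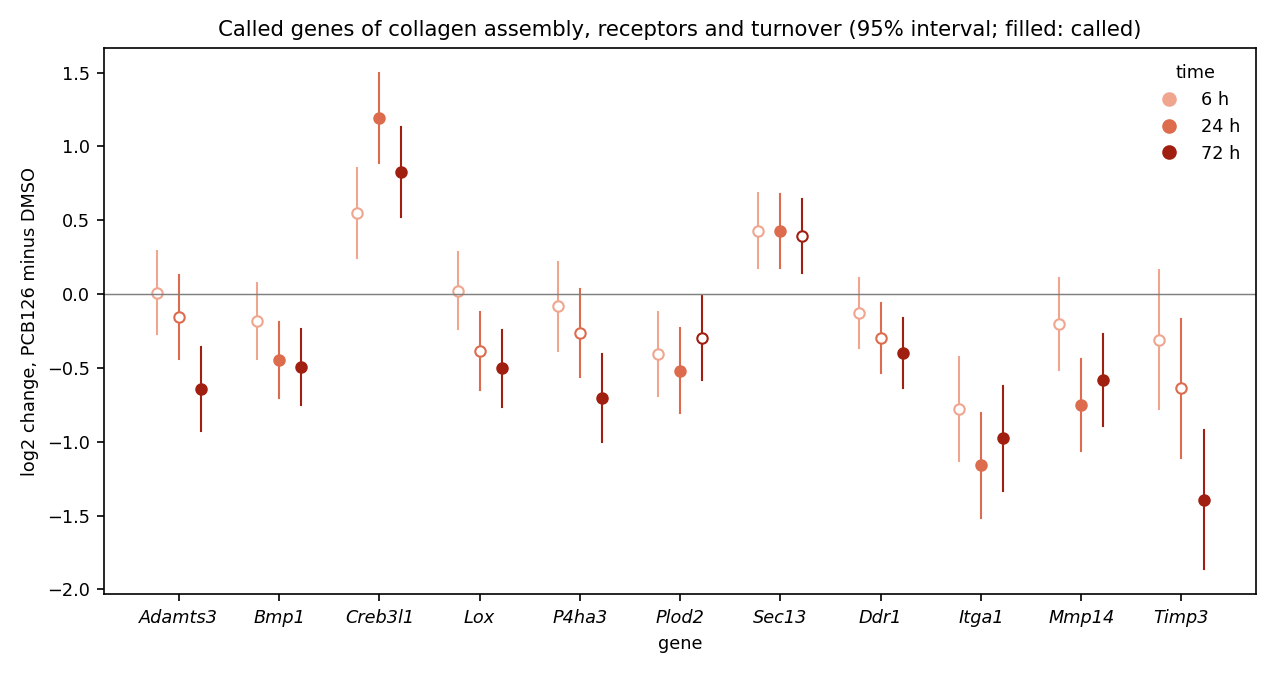
Log2 change (PCB126 minus DMSO), with 95% intervals, at 6, 24 and 72 h (light to dark) of the 11 called genes of collagen assembly, collagen receptors and collagen turnover, with called values filled. Creb3l1 and Sec13 lie above 0 at all times, Itga1 and Mmp14 below it, and Timp3 reaches -1.39 at 72 h.

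Some assembly genes also fell with time in culture. Between 6 and 72 h, 8 of 36 fell in PCB126 cultures, beside 4.17% of all genes, and 6 of 36 in DMSO cultures, beside 3.27%, and none rose in either. Lox changed by -0.97 in PCB126 cultures, and in DMSO cultures it averaged 11.48 at 6 h and 11.04 at 72 h. Pcolce, an enhancer of procollagen processing, changed by -0.78 in PCB126 cultures and -0.69 in DMSO cultures.

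Markers of mesenchymal cells and myofibroblasts, other than collagens, were set beside these results. By the same test 7.44% of all genes were called at 72 h. Of 18 listed, 17 were measured, and the mean over them at 72 h lay between 6.16 and 6.32 on the PCB126 arrays and between 6.09 and 6.13 on the DMSO arrays. Most members did not rise: 7 changes were positive and 10 negative, with a median of -0.03. At 72 h Tagln, Fbln2 and Vim rose (1.62, 1.47 and 1.15) and Ngfr fell (-0.79), 4 of 17, while Fbln2 had fallen by 1.42 between 6 and 72 h in DMSO cultures. Of 11 measured cholangiocyte markers 1 rose (Krt8, 1.08) and 3 fell at 72 h (Aqp1 -1.44, Krt19 -1.37 and Sox9 -0.85), with list means of 5.65 to 5.74 on the PCB126 arrays and 5.85 to 6.00 on the DMSO arrays. Of 12 hepatocyte markers 1 fell, Cyp2e1 by 2.67 on the log2 scale (list means 4.39 to 4.61 with PCB126 and 4.64 to 4.78 with DMSO), and of 11 blood and endothelial markers Tek (-1.53) and Cd14 (-0.76) fell (list means 4.87 to 4.99 with PCB126 and 5.12 to 5.17 with DMSO). In these bulk samples fewer cells that express a gene and less RNA per cell cannot be told apart, and the part of these markers in the collagen results was not tested.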

How the data were processed

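Expression was measured on 18 Affymetrix rat exon arrays, 3 for each of 6 combinations of treatment and time. The deposited values are on a log2 scale and, per the submitters' processing notes, were made by RMA in Affymetrix Power Tools 1.12.0; the version of RMA and the array build are not given in the sources used here. RMA removes background, scales the arrays to each other and sums up probes, so changes at either end of the scale are compressed. Of 1044112 probe sets, 223110 had 1 gene symbol in the platform annotation, 3523 several and 817479 none; those with 1 symbol were used. Detection p-values were not used, and the number of arrays limits the precision.

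Gene values (median of a gene's probe sets) were fitted with limma 3.58.1 in R 4.3.3, with 1 mean per group over all 18 arrays (12 residual and 3.89 prior degrees of freedom), and single probe sets likewise. Moderated tests were two-sided, with Benjamini-Hochberg adjustment over every gene or probe set of a comparison, and 95% intervals come from the same fit. The R packages data.table (version 1.17.8) and matrixStats (version 1.5.0) handled the values. The fits were checked on simulated data.

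The members, gene lists and settings were chosen with earlier results of these data known. Named with values are every collagen called with PCB126 at any time or in the F-test, a fixed set of common chains (Col1a1, Col1a2, Col3a1, Col4a1, Col4a2, Col5a1, Col5a2 and Col6a1 to Col6a3, of which the type VI chains were among the dimmer members), the 3 uncalled collagens with the largest change at 72 h, called genes of the assembly and receptor lists, and Cyp1a1. Collagens named for their changes with time, for their probe sets or to complete a class, and genes of the collagenase and marker lists, were chosen after their values were seen.

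Over all genes, same-numbered PCB126 and DMSO samples of 1 time deviated together only weakly. The correlations were 0.00405 to 0.170, all positive, and over 0.1 in 2 of 9 pairs. The replicate number was therefore not taken as a pairing in the main fit. Single genes could still follow it, as Col4a1 was highest on replicate 2 in all 6 groups. Alternatives were a replicate block, gene means in place of medians, only bright probe sets or only bright genes, genes with at least 4 probe sets, 2 scalings, the compared groups alone, array quality weights and leaving out arrays.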

Additional observations from a re-analysis of the deposited data

Results flagged for a closer look

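The effect of PCB126 on Col14a1 was called as differing between the times. The log2 change of PCB126 against DMSO was larger at 72 h than at 6 h by 1.33 (1.32602 before rounding, SE 0.236, limma), and the F-test over the 3 times gave an adjusted p of 0.0350. This F-test call was lost in 14 of the 18 fits that left out 1 array, with an adjusted p of at most 0.0994. The PCB126 arrays averaged 8.08 at 6 h, 7.94 at 24 h and 7.92 at 72 h, and the DMSO arrays 8.18, 7.56 and 6.69.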

How the results depend on the processing

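At 6 h 0 collagens were called under every setting tried. The count at 24 h (1 as reported) was 2 with the replicate block, with bright probe sets, with bright genes alone, with genes of at least 4 probe sets and with array quality weights, 5 with the mean over probe sets, and 0 with the compared groups alone, without replicate 1 of PCB126 at 24 and 72 h, and without any 1 array (lowest 0, highest 0). At 72 h (3 as reported) it was 5 with the mean over probe sets, with bright probe sets and with bright genes alone, and 3 without any 1 array. The F-test (1 as reported) called 2 with the mean over probe sets and with array quality weights, 0 without both replicates 1 of PCB126, and between 0 and 1 without any 1 array. For 72 against 6 h, PCB126 cultures (7 as reported) gave 4 with quantile normalization, with centring on the median and without both replicates 1, 1 with the compared groups alone, and 3 to 6 without any 1 array. DMSO cultures (6 as reported) gave 2 with quantile normalization, 3 with centring, 2 with the compared groups alone, and 2 to 6 without any 1 array. The cause of these shifts was not tested. Centring moved the median of all genes from -0.05 to 0.09 in PCB126 cultures and from -0.05 to 0.10 in DMSO cultures over this span, so falls with time are smaller on that scale. Collagen probe sets called at 72 h (136 as reported) stayed within 1.5 times that count, with 141 under the replicate block and 113 to 131 without any 1 array. The replicate block changed no other count by over 1.5 times. The results for single genes were counted once for each alternative fit. In this count 0 reversed, 132 lost a call, 15 gained one and 456 kept their side of the threshold. Most of these genes entered the count because they were called in the main fit. With 3 arrays per group, changes of dim members such as Col20a1 had wide intervals.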

Other observations

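A further 13 probe sets were paired with both Arfgap1 and Col20a1 and were left out of the gene values. Their median averaged 4.10 ± 0.15, 4.22 ± 0.34 and 4.20 ± 0.42 in PCB126 cultures at 6, 24 and 72 h, and 4.59 ± 0.41, 4.35 ± 0.59 and 4.04 ± 0.52 in DMSO cultures (log2, SD, n = 3 arrays each). No test of these values was made.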
